A study of Mus musculus with 9 samples.

Results

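The Schlafen genes form a family of myeloid and lymphoid growth regulators that lie side by side on mouse chromosome 11. The 7 members described here are Slfn1, Slfn2, Slfn3, Slfn4, Slfn5, Slfn8 and Slfn9. They were chosen by symbol among the spots that are not controls. Of 55681 probes, 9 carry the symbol of a member, 2 each for Slfn8 and Slfn9 and 1 for each other member. All 9 probes passed the filter on dim probes, so the 7 members are 7 of the 16463 genes tested.

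Total RNA of mouse macrophages was labelled with Cy3 and hybridised to Agilent arrays of a single colour. There were 3 arrays of F4/80high tumour-associated macrophages (TAMs), 3 of F4/80low TAMs and 3 of peritoneal exudate cells (PECs), the controls. Both TAM subsets came from a fibrosarcoma and the PECs from the peritoneum, and all mice were C57BL/6J with no genetic change named in the labels. TAMs were sorted by the surface protein encoded by Adgre1, which marks mature mouse macrophages, and the labels give no other gate, no age and no treatment. Because TAMs differ from PECs both by the tumour and by the tissue they were taken from, effects of the tumour and of the site cannot be told apart. The series speaks of biological replicates without saying whether each came from its own animal, so the p-values reflect only the variation among these samples, some of which may be technical.

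Schlafen genes are induced by type I interferon and by Toll-like receptor ligands, and their proteins share a Schlafen core that in several members binds or cuts transfer RNA. Mouse members fall into a short group (Slfn1, Slfn2), an intermediate group (Slfn3, Slfn4) and a long group (Slfn5, Slfn8, Slfn9). The long members add a helicase-like region and are largely nuclear. In macrophages and other leukocytes the family is best known for holding cells in quiescence and for its response to interferon and microbial products.

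Levels below are log2 intensities relative to the 75th percentile of each array, so 0 is the level that 75% of the spots do not exceed, and levels of different probes are not compared with each other. Of 59305 spots per array, 21421 to 22695 exceeded background clearly. Adgre1 averaged 5.94 ± 0.26 in F4/80high TAMs, 2.89 ± 0.50 in F4/80low TAMs and 5.88 ± 0.25 in PECs (SD, n = 3 each), which follows the labels of the sort, with no difference past the threshold between F4/80high TAMs and PECs (adjusted p 0.882). Markers of neutrophils, T cells and NK cells were higher in F4/80low TAMs than in both other groups. Mean log2 levels of monocyte markers were 1.56 to 2.12 in F4/80high TAMs, 3.40 to 4.26 in F4/80low TAMs and −1.12 to −0.61 in PECs. Their summed levels overlapped between the TAM subsets. For macrophage markers the means were 4.34 to 4.79, 2.32 to 2.76 and 4.03 to 4.46 in the same order. Neutrophil markers had a summed level (linear, relative to the same percentile) of 231 to 337 in F4/80high TAMs, 1957 to 8463 in F4/80low TAMs and 130 to 171 in PECs, and 11 of 13 tested were higher in F4/80low TAMs than in PECs. T cell markers summed to 13.7 to 17.9, 39.4 to 83.6 and 10.8 to 15.7 in the same order of groups (10 of 12 higher), and NK cell markers to 9.81 to 12.0, 33.0 to 49.2 and 8.74 to 10.8 (6 of 6 higher). Of all genes tested, 22.7% were called higher in F4/80low TAMs than in PECs. Among the markers tested, 4 of neutrophils, 5 of T cells and 4 of NK cells were well above background on no PEC array. These passed the filter on dim probes only through F4/80low TAMs, so their being higher there is no independent support. Summed levels of B cell markers went the other way, at 121 to 147 in F4/80high TAMs, 40.7 to 67.1 in F4/80low TAMs and 255 to 271 in PECs. Dendritic cell markers summed to 324 to 367, 273 to 311 and 430 to 532. Such sums follow the brightest genes. In the same order, mean log2 levels were −1.93 to −1.60, −1.27 to −0.48 and −1.43 to −0.87 for B cell markers. For dendritic cell markers they were 0.25 to 0.38, 0.00 to 0.99 and −0.78 to −0.52. Of 6 dendritic cell markers tested, 3 were higher and 2 lower than in PECs in each subset. The number of markers well above background per array was 8 to 11 of 13 for neutrophils in F4/80high TAMs, 13 in F4/80low TAMs and 6 to 8 in PECs. For T cells it was 4 of 13 in F4/80high TAMs, 12 to 13 in F4/80low TAMs and 5 to 7 in PECs. For NK cells it was 2 to 3 of 10, 6 to 8 and 2 in the same order. Of the T cell receptor genes Cd3d and Cd3g were above background on the F4/80low arrays alone and Cd3e on all 9 arrays, and of the NK cell receptor genes Klrd1 was so on the F4/80low arrays alone and Ncr1 and Klrk1 on none. In such bulk samples fewer cells of a type and less RNA per cell cannot be told apart, and the part of these other cells in the Schlafen levels of F4/80low TAMs was not tested.

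The long members Slfn8 and Slfn9 are close copies, and 1 probe of each holds a stretch of nearly identical sequence. Of the 60 bases of the brighter Slfn8 probe, a 35-base stretch matches the dimmer Slfn9 probe at 33 bases. The stretches are shown because they bear on how far the pair can be told apart, with the differing bases in capitals (mm9, minus strand, chr11:82815829-82815858 for Slfn8 and chr11:82793927-82793956 for Slfn9).
Slfn8: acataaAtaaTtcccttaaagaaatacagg
Slfn9: acataaGtaaCtcccttaaagaaatacagg
Counted from 1 at the 5′ end of the Slfn8 probe, the differences are A12G and T16C, Slfn8 base first. The longest identical run is 19 bases, whereas all other pairs of Schlafen probes share runs of at most 9 bases. The brighter Slfn9 probe (mm9, chr11:82793812-82793871) and the dimmer Slfn8 probe (mm9, chr11:82830985-82831044) do not share that stretch, so values of all 4 probes are given.

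Promoters are shown for the 3 members that hold the interferon-stimulated response element, the motif through which interferon-activated factors act on genes (GAAA, any 2 bases, GAAA, on both strands). It was found in the windows of Slfn5, Slfn8 and Slfn9, the long members, and in 3.44% of all 32851 promoter windows, which run from 250 bases before to 50 after a start. The gamma-activated site (TTCNNNGAA, in 8.30% of windows) and an NF-kappaB motif (GGGA, any 2 bases, TTCC, in 1.47%) were found in the windows of 0 of the 7 members. The sequences, from RefSeq on GRCm38.p6, are the 250 bases before the start on the strand of the gene, with the motif match in capitals. They are chr11:82951852-82952101 on the plus strand for Slfn5, and chr11:83020811-83021060 and chr11:82991831-82992080 on the minus strand for Slfn8 and Slfn9.
Slfn5: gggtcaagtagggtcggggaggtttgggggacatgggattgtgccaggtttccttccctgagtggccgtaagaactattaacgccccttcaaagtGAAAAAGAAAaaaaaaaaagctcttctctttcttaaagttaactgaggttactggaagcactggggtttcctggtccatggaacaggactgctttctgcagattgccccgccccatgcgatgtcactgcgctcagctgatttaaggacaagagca
Slfn8: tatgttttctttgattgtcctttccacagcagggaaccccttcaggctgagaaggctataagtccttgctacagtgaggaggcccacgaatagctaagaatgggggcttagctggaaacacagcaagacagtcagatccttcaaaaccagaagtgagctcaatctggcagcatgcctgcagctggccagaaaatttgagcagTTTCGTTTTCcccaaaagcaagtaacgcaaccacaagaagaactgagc
Slfn9: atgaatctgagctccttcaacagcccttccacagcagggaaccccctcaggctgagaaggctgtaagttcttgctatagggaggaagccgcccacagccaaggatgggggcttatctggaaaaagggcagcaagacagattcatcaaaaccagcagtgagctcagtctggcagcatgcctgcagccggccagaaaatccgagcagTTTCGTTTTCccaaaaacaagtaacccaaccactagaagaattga
The match lies at bases −155 to −146 from the start in Slfn5, −48 to −39 in Slfn8 and −45 to −36 in Slfn9, and in Slfn8 and Slfn9 it reads on the opposite strand. A second annotated start of Slfn8 places the same match at −136 to −127. The windows of Slfn8 and Slfn9 were identical at 83.3% of their bases, against at most 52.7% for any other pair of members. A match describes these letters only, and a window without one says nothing about the factor.

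In F4/80high TAMs all 7 Schlafen genes rose against PECs, with log2 fold changes between 3.24 (Slfn5) and 6.24 (Slfn4). All 7 passed the limma test, while 25.0% of all genes tested were called higher, and the groups of all 7 did not overlap, as for 31.2% of all genes in that direction. Their median log2 fold change was 4.07, with Slfn1 at its bound as well, against 0.00 over all genes. Each of the 9 probes was called higher, against 24.5% of all probes. Slfn1, Slfn3 and Slfn4 were well above background on 0, 2 and 1 of 3 PEC arrays, and the dimmer Slfn9 probe on 2. These probes passed the filter on dim probes only through the TAMs, where they are high. Their calls against PECs, in either subset, are therefore no independent support. All TAM arrays share slide 1 with PEC replicate 1, while PEC replicates 2 and 3 are on slide 2. Only PECs are on both slides, so with slide as a block the TAMs are set against PEC replicate 1 alone, as on slide 1 alone. The 2 settings are therefore not separate checks. In both, all 7 kept their direction. Slfn5, with a log2 fold change of 2.77 on slide 1 alone, fell short of the threshold there.

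In F4/80low TAMs 6 of the 7 rose against the same PEC arrays, and Slfn5 did not pass. Called higher were 22.7% of all genes, and 26.0% had groups that did not overlap in that direction, as 6 members did. The members' median was 2.51, against −0.09 over all genes, and their log2 fold changes ran from 1.58 (Slfn5) to 6.06 (Slfn4). At the level of probes 8 of 9 were called higher, against 21.9% of all probes. The limit given above for Slfn1, Slfn3, Slfn4 and the dimmer Slfn9 probe holds here too. Over all genes 3741 were higher and 4800 lower, a split that became 1931 and 6789 when arrays were centred on their median, which moved the median of all genes to −0.57. The 6 members kept their call and direction in that setting. Since the comparisons with PECs share their PEC arrays, they are given side by side and were not set against each other.

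Between the TAM subsets, 5 of the 7 were higher in F4/80high TAMs: Slfn9, Slfn8, Slfn2, Slfn1 and Slfn3. Of all genes 18.6% were called higher, and 27.0% did not overlap in that direction, as the same 5 members did. The members' median was 1.55, against 0.08 over all genes. Slfn4 and Slfn5 did not pass. At the level of probes 7 of 9 were called higher, against 18.3% of all probes. Over all genes 3065 were higher and 2304 lower, and with median centring 4061 and 1292. Median centring moved the median of all genes to 0.40 and called Slfn5 as well. Same-numbered arrays of the TAM subsets deviated together. With replicate number as a block the adjusted p was 0.0715 for Slfn1, 0.0506 for Slfn3 and 0.0449 for Slfn5, so 4 of 7 members passed. Without any 1 of the F4/80high arrays, or without F4/80low replicate 1 or 3, the members past the threshold numbered 3. Higher in both TAM subsets than in PECs were 6 of 7 members, against 15.4% of all genes. With the further condition of a higher level in F4/80high over F4/80low TAMs there were 5 of 7 members, against 4.59% of all genes. Slfn1, Slfn3 and Slfn4 among the 6, and Slfn1 and Slfn3 among the 5, fall under the limit given above for calls against PECs.

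**Figure D1:**
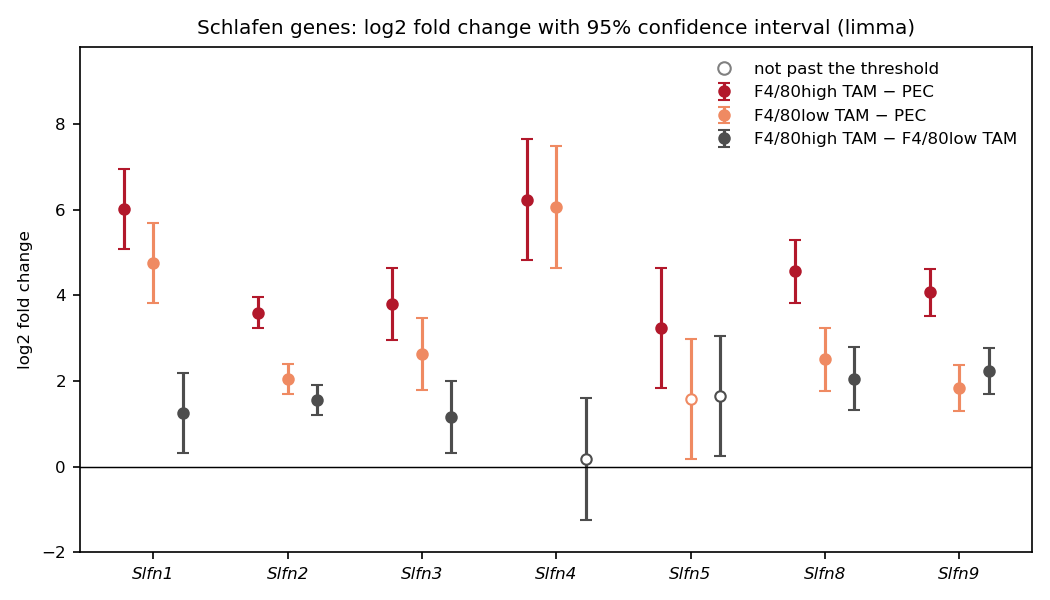
Log2 fold changes of the 7 Schlafen genes (vertical axis) in F4/80high TAMs against PECs, F4/80low TAMs against PECs, and F4/80high against F4/80low TAMs, from the limma fit over all 9 arrays. Points are estimates, bars are 95% confidence intervals and open points did not pass the threshold. All filled points lie above 0, and Slfn4 is the member whose interval between the TAM subsets spans 0.

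Slfn2 had the smallest standard error of the members. It belongs to the short group, keeps T cells and monocytes quiescent in the mouse, and binds transfer RNA to shield it from cleavage. Its probe lies at chr11:82883791-82883850 (mm9, plus strand). The levels were 7.30, 7.27 and 7.07 on F4/80high arrays, 5.63, 5.72 and 5.64 on F4/80low arrays, and 3.62, 3.46 and 3.76 in PECs. The 3 groups lay well apart, with F4/80low TAMs between the others on every array. Slfn2 rose 12.1-fold in F4/80high TAMs (3.60 on the log2 scale, SE 0.16, adjusted p 3.95e-07). In F4/80low TAMs it rose 4.14-fold (2.05 on the log2 scale, SE 0.16, adjusted p 1.26e-05). F4/80high TAMs exceeded F4/80low TAMs 2.93-fold (1.55, SE 0.16, adjusted p 0.000152). In all 20 alternative settings Slfn2 passed in all 3 comparisons.

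Slfn1, the founding member of the short group, arrests the growth of thymocytes and fibroblasts when it is overexpressed in the mouse. Its probe (mm9, chr11:82935656-82935715, plus strand) was well above background on all TAM arrays and on none of the PEC arrays. The levels were 1.70, 2.02 and 2.20 on F4/80high arrays, 0.96, 1.05 and 0.12 on F4/80low arrays, and −4.45, −4.63 and −3.05 in PECs, where the values have only a bound. Every TAM array stood above every PEC array, and the subsets did not overlap. Slfn1 was at least 23.1-fold higher in F4/80high TAMs (means 1.97 and −4.04, adjusted p 5.46e-06) and at least 9.64-fold higher in F4/80low TAMs (means 0.71 and −4.04, adjusted p 2.79e-05). Those bounds set PECs at their own level or, where higher, at the lowest signal that was well above background on each array. Between the subsets Slfn1 differed by 1.26 on the log2 scale (SE 0.42, adjusted p 0.0444). That last call was lost when any TAM array or PEC replicate 1 was left out, with values between 0.96 and 1.43, and in 11 of 20 settings in all.

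Slfn3 and Slfn4 make up the intermediate group. Slfn3 is known from the differentiation of intestinal epithelium and from regulatory T cells, and its probe lies at chr11:83028431-83028490 (mm9, plus strand). The levels of Slfn3 were 1.50, 1.80 and 1.68 on F4/80high arrays, 0.55, 1.02 and −0.07 on F4/80low arrays, and −1.85, −2.97 and −1.62 in PECs, of which 2 were well above background. The 3 groups did not overlap. Slfn3 rose by 3.80 on the log2 scale in F4/80high TAMs (SE 0.37, adjusted p 3.94e-05) and by 2.64 in F4/80low TAMs (SE 0.37, adjusted p 0.000449). The difference of 1.16 between the subsets (SE 0.37, adjusted p 0.0404) passed narrowly. It was lost without any 1 of the F4/80high arrays or without F4/80low replicate 1 or 3, at 0.88 to 1.24, and in 7 of 20 settings in all.

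Slfn4 is the member tied most closely to myeloid cells: it is induced by Toll-like receptor ligands and interferon, falls as monocytes mature into macrophages, and marks a subset of myeloid-derived suppressor cells in mice. Its probe lies at chr11:83002974-83003033 (mm9, plus strand). Its levels were 2.69, 3.61 and 3.96 on F4/80high arrays, 3.48, 3.72 and 2.53 on F4/80low arrays, and −4.32, −1.77 and −2.36 in PECs. The TAM subsets overlapped, and each PEC array lay below every TAM array. Only 1 of 3 PEC arrays was well above background, so the sizes that follow rest on PEC values that are mostly not. Slfn4 rose by 6.24 on the log2 scale in F4/80high TAMs (SE 0.63, adjusted p 4.59e-05) and by 6.06 in F4/80low TAMs (SE 0.63, adjusted p 7.63e-05). Without PEC replicate 1, the lowest array, these values were 5.48 and 5.31. With slide as a block, which sets the TAMs against that array alone, they were 7.74 and 7.57. Between the subsets Slfn4 stood at 0.18 (95% interval −1.25 to 1.60, adjusted p 0.861). A difference of up to 1.60 on the log2 scale in favour of F4/80high TAMs, or 1.25 the other way, therefore lies within the interval. Its sign turned with quantile normalization (−0.043) and without F4/80high replicate 3 (−0.10) or F4/80low replicate 3 (−0.18).

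Slfn5 is a long member that in human and mouse cells responds to type I interferon and acts in the nucleus. Its probe lies at chr11:82774907-82774966 (mm9, plus strand), and its promoter holds the response element shown above. The levels were 1.88, 1.96 and 2.46 on F4/80high arrays, −1.05, 1.92 and 0.46 on F4/80low arrays, and −0.68, −1.64 and −1.09 in PECs. F4/80low replicate 1 lay among the PECs and replicate 2 among the F4/80high TAMs, so F4/80low TAMs overlapped with both other groups. Slfn5 rose by 3.24 on the log2 scale in F4/80high TAMs (SE 0.62, adjusted p 0.00207). F4/80low TAMs differed from PECs by 1.58 (SE 0.62, adjusted p 0.0577), and F4/80high from F4/80low TAMs by 1.65 (SE 0.62, adjusted p 0.0702), neither past the threshold. Without F4/80low replicate 1 the difference from PECs was 2.33 (adjusted p 0.00293), and without F4/80low replicate 2 the difference between subsets was 2.39 (adjusted p 0.00592).

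Slfn8 is a long member whose transgenic overexpression in mice curbs T cell development. The brighter Slfn8 probe (mm9, chr11:82815804-82815863, minus strand) read 6.56, 6.64 and 6.60 on F4/80high arrays, 3.68, 5.08 and 4.86 on F4/80low arrays, and 2.12, 1.79 and 2.18 in PECs. F4/80high arrays agreed closely, and F4/80low replicate 1 lay lower than the other F4/80low arrays while staying above every PEC array. Slfn8 rose by 4.57 on the log2 scale in F4/80high TAMs (SE 0.33, adjusted p 6.26e-06) and by 2.51 in F4/80low TAMs (SE 0.33, adjusted p 0.000271). The subsets differed by 2.06 (SE 0.33, adjusted p 0.00143). The dimmer probe read 2.81, 3.00 and 2.78 on F4/80high arrays, 0.17, 1.66 and 0.81 on F4/80low arrays, and −1.14, −0.84 and −1.04 in PECs. F4/80low replicate 1 was the lowest of its group on this probe too, and its log2 fold changes of 3.87, 1.89 and 1.98, in the same order of comparisons, all passed.

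Slfn9, the neighbour of Slfn8 on the minus strand, read 3.87, 3.93 and 4.12 on F4/80high arrays, 1.70, 1.56 and 1.97 on F4/80low arrays, and 0.01, 0.30 and −0.60 in PECs on its brighter probe. The 3 groups did not overlap, and F4/80low replicate 1 was not apart from its group. Slfn9 rose by 4.07 on the log2 scale in F4/80high TAMs (SE 0.24, adjusted p 2.25e-06) and by 1.84 in F4/80low TAMs (SE 0.24, adjusted p 0.000271), and the subsets differed by 2.23 (SE 0.24, adjusted p 0.000201). The dimmer probe (mm9, chr11:82793914-82793973, minus strand), which holds the stretch shared with Slfn8, read 3.04, 3.19 and 3.30 on F4/80high arrays, 0.35, 0.68 and 0.82 on F4/80low arrays, and −1.38, −1.61 and −2.61 in PECs, 2 of them well above background. Its log2 fold changes of 5.04, 2.48 and 2.56, in the same order of comparisons, all passed. Slfn8 and Slfn9, like Slfn2, passed in all 3 comparisons in all 20 alternative settings.

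**Figure D2:**
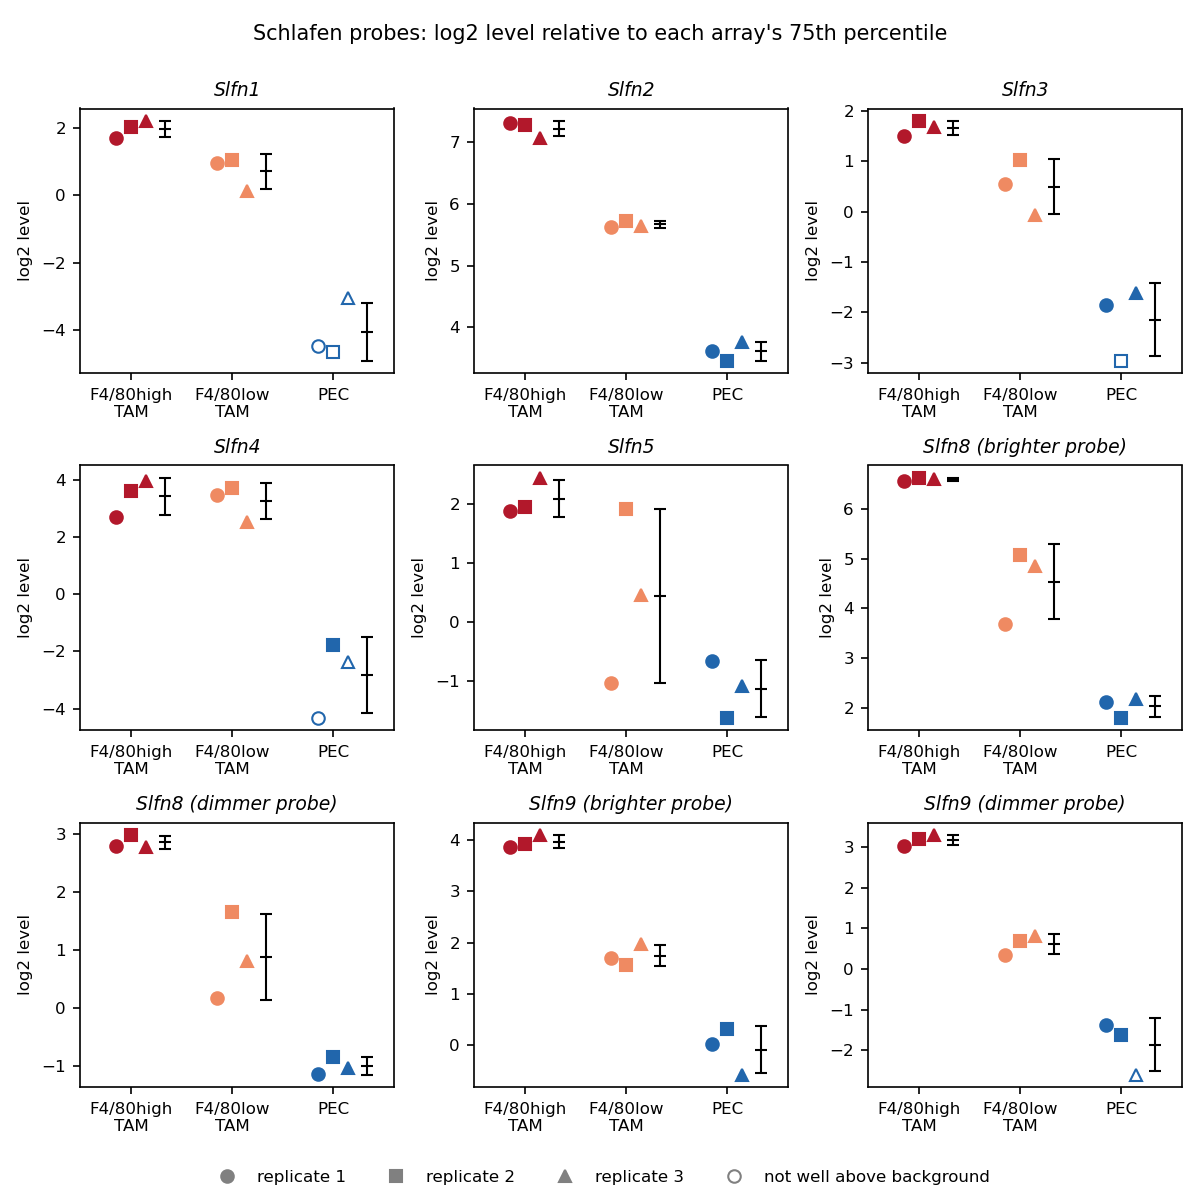
Log2 level (vertical axis, relative to each array's 75th percentile) of the 9 Schlafen probes in F4/80high TAMs, F4/80low TAMs and PECs. Symbols are single arrays by replicate number, open symbols were not well above background, and bars are mean ± SD (n = 3). Vertical scales differ between panels. F4/80low TAMs lie between the other groups for Slfn2, Slfn8 and Slfn9, overlap with F4/80high TAMs for Slfn4, and spread from −1.05 to 1.92 for Slfn5.

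The size of these changes depended on the background correction for dim members. Normexp correction with an offset of 50, against a 75th percentile of 53.5 to 97.3 in intensity, gave log2 fold changes in F4/80high TAMs against PECs of 2.35 for Slfn1, 1.85 for Slfn3, 3.41 for Slfn4, 1.96 for Slfn5 and 3.13 for Slfn9. For the bright members it gave 3.27 for Slfn2 and 4.10 for Slfn8. In F4/80low TAMs against PECs it gave 1.53, 1.02, 3.09, 0.96 and 1.07 for Slfn1, Slfn3, Slfn4, Slfn5 and Slfn9. Each of these kept its direction, and Slfn5 in F4/80low TAMs passed with normexp (adjusted p 0.0424) and in the deposited value table (adjusted p 0.0488).

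Slfn10-ps, a pseudogene of the cluster, followed the long members only in part. It averaged 5.30 ± 0.12 in F4/80high TAMs, 3.35 ± 0.62 in F4/80low TAMs and 2.82 ± 0.28 in PECs. It rose by 2.48 in F4/80high TAMs (SE 0.30, adjusted p 0.000125), and F4/80high TAMs exceeded F4/80low TAMs by 1.95 (SE 0.30, adjusted p 0.00117). F4/80low TAMs differed from PECs by 0.53 (SE 0.30, adjusted p 0.163), short of the threshold. Probes named Slfn14 and Slfnl1 were not well above background on any of the 9 arrays.

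Genes of the type I interferon response, the antiviral programme to which the family belongs, rose with it. In F4/80high TAMs 28 of 28 were higher than in PECs, and in F4/80low TAMs 26 of 28, with medians of 4.81 and 2.88 (4.81 and 2.68 with genes below background in PECs at their bound). Called higher over all genes were 25.0% and 22.7%. Ifi44 and Cxcl10 were well above background on no PEC array, Ifit2 on at most 1 and Ifit1 on at most 2. These passed the filter on dim probes only through the TAMs, so their calls against PECs are no independent support. The same limit holds for such genes in the lists below. All 28 listed genes were higher in F4/80high than in F4/80low TAMs, with a median of 2.13, against 18.6% of all genes. The largest rises among genes above background in both groups were in Mx1, an antiviral GTPase (8.95 in F4/80high and 5.91 in F4/80low TAMs, SE 0.57), and Ifit3, an antiviral effector (8.90 and 5.67, SE 0.60). Mx2, a relative of Mx1, the nucleotide kinase Cmpk2, the antiviral enzyme Rsad2 and the ubiquitin-like Isg15 stood at 8.14, 8.02, 7.78 and 7.42 in F4/80high TAMs. Between the subsets Ifi44 (3.49, SE 0.68) and Ifit2 (3.47, SE 0.50) differed most.

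F4/80low replicate 1 was the lowest F4/80low array in this programme, as it was for Slfn5 and Slfn8. The mean log2 level of the 28 genes was 7.06, 7.28 and 7.23 on F4/80high arrays, 3.96, 5.36 and 5.21 on F4/80low arrays, and 1.14, 1.24 and 1.67 in PECs. The same F4/80low replicate 1 had the highest summed level of neutrophil markers, 8463 against 2390 and 1957 on the other F4/80low arrays. For Slfn1, Slfn3 and Slfn4 the lowest F4/80low array was replicate 3, and for the brighter Slfn9 probe replicate 2. On the dimmer Slfn9 probe, which holds the stretch shared with Slfn8, replicate 1 was lowest (0.35 against 0.68 and 0.82). For Slfn2 replicate 1 was lowest by little (5.63 against 5.72 and 5.64). Whether the neutrophil transcripts bear on the lower values of replicate 1 was not tested.

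**Figure D3:**
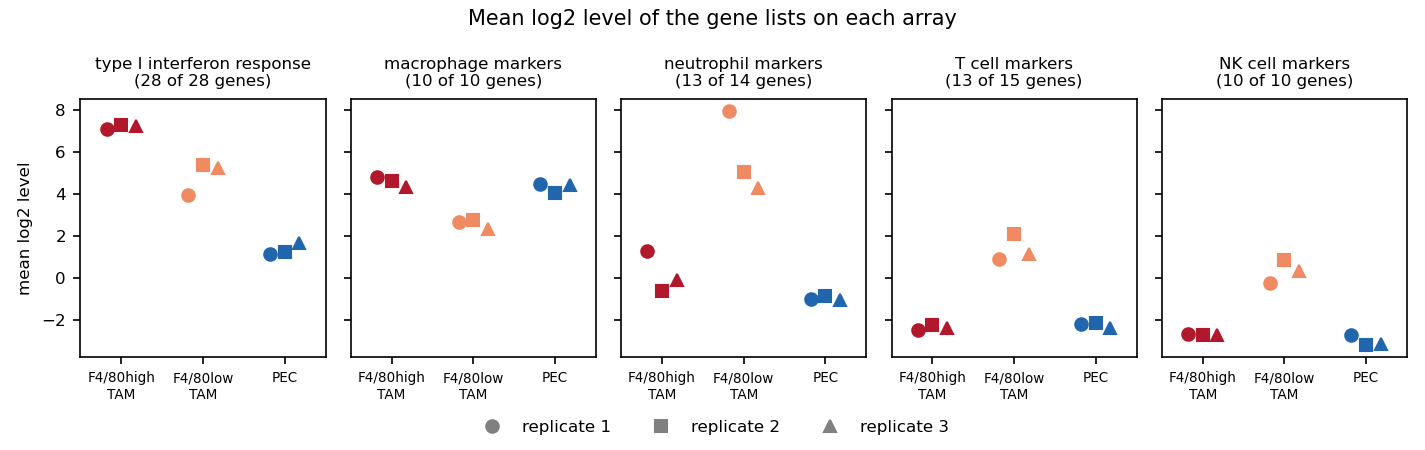
Mean log2 level per array (vertical axis, relative to each array's 75th percentile) of type I interferon response genes and of macrophage, neutrophil, T cell and NK cell markers in F4/80high TAMs, F4/80low TAMs and PECs. Symbols are single arrays by replicate number. Interferon response genes reach 7.06 to 7.28 in F4/80high TAMs, 3.96 to 5.36 in F4/80low TAMs and 1.14 to 1.67 in PECs, and neutrophil, T cell and NK cell markers are highest in F4/80low TAMs.

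The machinery that makes and relays interferon moved less uniformly. Of 19 tested genes 10 were higher and 1 lower in F4/80high TAMs than in PECs (median 1.62), 10 higher and 7 lower in F4/80low TAMs (0.92), and 13 higher and 1 lower between the subsets (0.84). Among all genes 25.0%, 22.7% and 18.6% were called higher and 28.0%, 29.2% and 14.0% lower in the same order. Socs3 and Socs1, feedback inhibitors of cytokine receptors, rose by 9.20 (SE 0.35) and 7.80 (SE 0.38) in F4/80high TAMs and by 5.78 and 4.80 in F4/80low TAMs. Irf7 and Irf1, transcription factors of the interferon response, rose by 5.52 (SE 0.48) and 4.26 (SE 0.23) in F4/80high TAMs and by 2.89 and 3.44 in F4/80low TAMs. Ifnb1, which encodes interferon beta, was above background on all TAM arrays and on no PEC array. It was at least 313-fold higher in F4/80high TAMs and at least 17.4-fold higher in F4/80low TAMs, and it differed by 4.16 between the subsets (SE 0.27, adjusted p 1.53e-05).

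Toll-like receptor and NF-kappaB genes, the other known inducers of the family, were mostly higher in both subsets. Of 15 tested, 12 were higher and 1 lower in F4/80high TAMs than in PECs (median 2.80, or 2.77 with genes at their bound), 9 higher and 3 lower in F4/80low TAMs (1.67), and 10 higher and 0 lower between the subsets (0.97). The shares over all genes were 25.0%, 22.7% and 18.6% higher and 28.0%, 29.2% and 14.0% lower in the same order. Nfkbia, the NF-kappaB inhibitor that NF-kappaB itself induces, rose by 5.27 in F4/80high and 4.11 in F4/80low TAMs (SE 0.18), and the cytokine gene Tnf by 5.48 and 3.72 (SE 0.39). Myd88, the adaptor of most Toll-like receptors, differed by 1.29 between the subsets (SE 0.15, adjusted p 0.000345), and Tlr7, the receptor for single-stranded RNA, by 1.33 (SE 0.17). Tlr7 was higher than in PECs in F4/80high TAMs (0.47) and lower in F4/80low TAMs (−0.86, SE 0.17).

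Genes of cell growth and quiescence, the process in which Slfn1 and Slfn2 act, were more often called higher than lower against PECs. The list holds cyclins as well as inhibitors of growth, so its counts give no direction of growth. Between the subsets they split evenly. Of 23 tested, 11 were higher and 3 lower in F4/80high TAMs than in PECs, 10 higher and 2 lower in F4/80low TAMs, and 5 higher and 5 lower between the subsets (medians 0.88, 0.65 and −0.12). Shares called over all genes were 25.0% higher and 28.0% lower, 22.7% and 29.2%, and 18.6% and 14.0%, in the same order. The G1 cyclins Ccnd1 (2.59, SE 0.24) and Ccne1 (2.55, SE 0.48) and the cyclin-dependent kinase inhibitor Cdkn1a (2.29, SE 0.43) rose in F4/80high TAMs. Klf2, a transcription factor of quiescent leukocytes, rose by 1.78 in F4/80high and 2.80 in F4/80low TAMs (SE 0.32). In F4/80low TAMs Cdkn2c also rose (1.42, SE 0.36), while Pcna (−1.61, SE 0.26) and Cdk4 (−1.27, SE 0.24) fell. Between the subsets Ccnd1 (3.10, SE 0.24) and Ccnd2 (2.55, SE 0.35) were higher in F4/80high TAMs and the antiproliferative Btg2 was lower (−1.67, SE 0.31).

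Genes of transfer RNA cleavage and its control, where Slfn2 is known to act, were few: of 6 tested, 2 were higher and 1 lower in F4/80high TAMs than in PECs, 1 higher and 2 lower in F4/80low TAMs, and 3 higher and 1 lower between the subsets. So few genes do not set the group apart from the shares called over all genes (25.0% higher and 28.0% lower, 22.7% and 29.2%, and 18.6% and 14.0%). Ang, the ribonuclease angiogenin that cuts transfer RNA, rose by 3.33 in F4/80high TAMs (SE 0.37), with 2 of 3 PEC arrays well above background. Rnh1, the inhibitor of that ribonuclease, fell by 1.67 in F4/80high and by 2.63 in F4/80low TAMs (SE 0.27). Nsun2, which methylates transfer RNA, rose by 0.96 in F4/80low TAMs (SE 0.17).

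The genes whose levels followed each member most closely over the 9 arrays were found by Pearson correlation, as a description in which the differences between the 3 groups dominate. For Slfn2 they were Myd88 (r = 0.998) and Ifnb1 (r = 0.997). For Slfn8 they were Irf9, a subunit of the factor that binds the response element (r = 0.999), and Parp9, an interferon-induced ADP-ribosyltransferase (r = 0.998). Irf9 rose by 1.70 in F4/80high and 0.92 in F4/80low TAMs (SE 0.17). Slfn4 was followed by Clec4e, the receptor Mincle of activated myeloid cells (r = 0.993), and by Lefty2 (r = 0.989). Clec4e, like Slfn4, rose in both subsets (4.71 and 4.37, SE 0.46), and its difference between them was 0.33 (SE 0.46, adjusted p 0.625). Slfn5 was followed by Sesn3 (r = 0.983) and Olfr1396 (r = 0.975), and Slfn9 by Stxbp3b (r = 0.995). Olfr1396 was well above background on 0 of 3 PEC arrays and 1 of 3 F4/80low arrays. Lefty2 and Ifnb1 were so on 0 of 3 PEC arrays. The correlations of Olfr1396, Lefty2 and Ifnb1 therefore rest partly on values near background. The genes nearest to Slfn1 and Slfn3, and the second of Slfn9, carry no gene symbol.

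Against PECs, genes around the Schlafen cluster moved in both directions or did not pass. Within 500 kb of the outermost Schlafen probes (mm9) lay 20 other tested genes with a symbol, among them Slfn10-ps. Of these, 7 were higher and 2 lower in F4/80high TAMs than in PECs (median 0.32), 4 higher and 2 lower in F4/80low TAMs (0.05), and 6 higher and 0 lower between the subsets (0.23). Over all genes 25.0%, 22.7% and 18.6% were called higher in these comparisons. On the Slfn5 side Nle1, Rad51d, Rffl, Lig3 and Zfp830 did not pass in any comparison, with log2 fold changes between −0.64 and 0.52. On the Slfn3 side the adjoining AI662270 rose by 1.18 in F4/80high and by 0.76 in F4/80low TAMs, while Ap2b1 and Taf15 did not pass in any comparison. Farther out, the chemokine genes Ccl5 (10.58, SE 0.70), Ccl4 (7.66, SE 0.22) and Ccl3 (5.62, SE 0.39) rose in F4/80high TAMs, and their values in F4/80low TAMs were 8.03, 4.24 and 2.96. The chemokine gene Ccl6 (−2.64, SE 0.35) and Wfdc17 (−2.50, SE 0.31), beside them, fell in F4/80high TAMs. In F4/80low TAMs Ccl6 fell by 2.50 and Wfdc17 by 1.79.

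**Figure D4:**
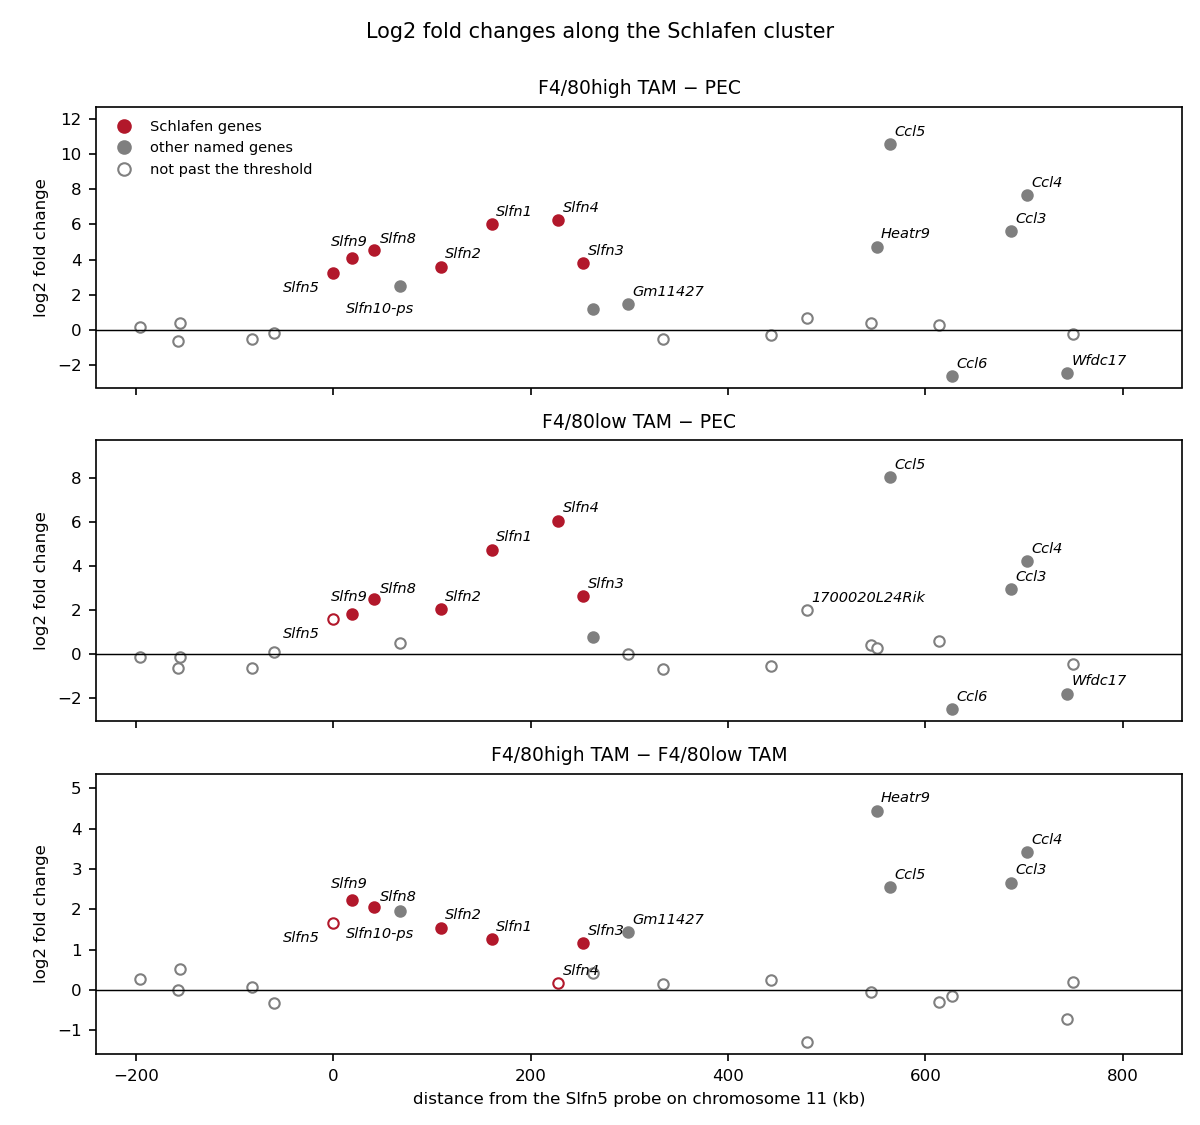
Log2 fold change (vertical axis) of the Schlafen genes and the 20 other named genes against the distance in kb from the Slfn5 probe on chromosome 11 (horizontal axis), for F4/80high TAMs against PECs, F4/80low TAMs against PECs, and F4/80high against F4/80low TAMs. Open points did not pass the threshold. The named genes on the Slfn5 side lie between −0.64 and 0.52, and Ccl5, Ccl4 and Ccl3 are high at the far end.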

How the data were processed

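The authors deposited Agilent Feature Extraction files (version 10.5.1.1, protocol GE1_105_Dec08), whose processed spot intensity is background-subtracted per the file headers. They also deposited a table of log2 values for 9703 probes, of unstated normalization and filter (column medians 8.26 to 8.35, correlation with log2 scanner intensity 0.960 to 0.978), used as an alternative only. Here the intensity was log2-transformed and expressed relative to the 75th percentile of the non-control spots of the same array. Outlier-marked spots were left out, and no spot was saturated. Symbols came from RefSeq accessions for 26413 probes and from the files for 29268. A probe entered the test if any group had it well above background on its 3 arrays, which left 21196 probes, and each gene was represented by its brightest.

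Groups were compared with limma 3.58.1 (lmFit, eBayes) in R 4.3.3, in a single fit of all 9 arrays, two-sided, with Benjamini-Hochberg adjustment over all genes within each comparison at 0.05. Precision is limited by having 3 arrays a group, with a median standard error of 0.24 on the log2 scale. The fit was also run on simulated data with independent errors, which leave out any correlation between arrays. Residuals of same-numbered F4/80high and F4/80low arrays correlated at 0.23, 0.17 and 0.13 across genes. For TAM and PEC arrays the same value was −0.10 to 0.09. The main fit did not pair arrays, and replicate number entered as a block in an alternative setting only. Named genes are the members, the list genes with the largest changes above background in both groups (at most 6 of the interferon response, 4 of other pathways), tested genes within 500 kb, the 2 genes most correlated with each member, and Adgre1. Members and lists were chosen with earlier results of these data known. Ang (2 of 3 PEC arrays above background), Tlr7, AI662270 and single cell markers were named beside them after their values were seen. Probe coordinates are on mm9 per the file headers, and positions within exons were not used here. Alternatives are given in the closing section.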

Additional observations from a re-analysis of the deposited data

Results flagged for a closer look

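The effect against PECs differed between the TAM subsets for 5 Schlafen genes. Because both effects use the same PEC arrays, their difference equals the direct comparison of F4/80high with F4/80low TAMs tested above. In log2 units, the rise in F4/80high TAMs exceeded that in F4/80low TAMs by 2.23 for Slfn9 and 2.06 for Slfn8, by 1.55 for Slfn2, and by 1.26 for Slfn1 and 1.16 for Slfn3. With replicate number as a block, Slfn9, Slfn8 and Slfn2 passed and Slfn1 and Slfn3 did not.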

How the results depend on the processing

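Each result was recomputed in 20 alternative settings. Against PECs, the members other than Slfn5 kept direction and call in every setting, in both TAM subsets. Genes called in F4/80high TAMs against PECs numbered 8737, but 5632 with slide as a block and 4896 on slide 1 alone. In F4/80low TAMs they numbered 8541, but 4907 and 4127 in those settings and 14388 with no filter on dim probes. Slide 1 alone has 1 PEC array, assumed to vary like the other groups. With slide as a block the effects against PECs rest on that same array. Schlafen genes called between the subsets numbered 5, but 3 with no filter and 3 to 5 with 1 array left out. With replicate number as a block they numbered 4, and the block changed no call against PECs. Slfn5 between the subsets passed with median centring (1.97), with the replicate block and without F4/80low replicate 2. Slfn4 between the subsets changed sign with quantile normalization (−0.043) and without F4/80high replicate 3 (−0.10) or F4/80low replicate 3 (−0.18), ranged up to 0.54 with 1 array left out, and passed in 0 of 20 settings. Slfn1 lost its call between the subsets with quantile normalization, no filter, the slide block and the replicate block. Dim probes limit the fold changes: normexp and the deposited table gave smaller values for Slfn1, Slfn3 and Slfn4 against PECs. The causes were not tested, beyond the fewer arrays of slide 1 alone.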
